A study of Homo sapiens with 6 samples.

Results

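The 35 genes described here make or regulate cholesterol and fatty acids, and they were taken as the rows whose symbol is on a fixed list, out of 26255 symbols in each of 6 RNA-seq files. BxPC-3, an established human pancreatic cancer cell line, was sequenced in 3 groups of 2 libraries each, and mRNA levels were deposited as FPKM (fragments per kilobase of transcript, scaled for sequencing depth). How the libraries were scaled to each other is not given in the sources used here. The groups were Parent, cells with no treatment, NC-1, cells given a negative control RNA, and miR-4711-5p, cells transfected with a microRNA of that name, with RNA sequenced 36 h after transfection. All groups are the same cell line, and nothing in the labels says that the 2 libraries of a group came from separate cultures, so the p-values measure only the spread between these libraries, which may be technical. The comparisons asked how the sterol branch (18 enzymes) and the fatty acid branch (8 enzymes) stood with miR-4711-5p, against each control. The other members are 6 genes of the SREBP system and sterol transport and 3 targets of the oxysterol receptor LXR.

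Cholesterol is built from acetyl-CoA through mevalonate, farnesyl diphosphate and squalene, and fatty acids are built from the same precursor by carboxylation, chain synthesis, elongation and desaturation. Both branches are driven by the SREBP transcription factors, of which SREBF2 mainly serves sterol genes and SREBF1 mainly fatty acid genes. SREBP precursors sit in the endoplasmic reticulum with the escort SCAP, are held there by INSIG proteins when sterols are plentiful, and are cut in the Golgi when sterols are scarce. LXR receptors sense oxysterols and switch on genes of sterol export.

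The transfected microRNA is shown first, since its seed (bases 2 to 8, in capitals) defines the sites searched in the members. The mature sequence and its locus, chr1:59733269-59733291 on the minus strand of GRCh38.p14, are from RefSeq.
hsa-miR-4711-5p: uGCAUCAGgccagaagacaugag

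A seed site was counted where the longest annotated 3′ UTR of a gene held CTGATGC (7mer-m8), TGATGCA (7mer-A1) or CTGATGCA (8mer, which contains both). Of the 35 members, 4 had such a site (11.4%), against 1958 of the 10593 tested genes with an annotated 3′ UTR (18.5%), with a median longest 3′ UTR of 1288 bases in the members and 1504 in the tested genes. None of the 35 members had an 8mer, which 3.62% of the tested genes had. The 4 genes were HMGCS1, SC5D, SREBF2 and INSIG2, and their 3′ UTR sites are printed below in gene orientation, with the site in capitals, since these are the only members with a match. The sites lie at chr5:43290283-43290289 (minus strand, HMGCS1), chr11:121179068-121179074 and chr11:121182000-121182006 (plus strand, SC5D), chr22:42303041-42303047 (plus strand, SREBF2) and chr2:118868492-118868498 (plus strand, INSIG2) of GRCh37.
HMGCS1, 7mer-m8: ttaggctatttCTGATGCttcagtgttat
SC5D, 7mer-A1: tttagttaaatTGATGCActacacttttg
SC5D, 7mer-m8: aaaattctcttCTGATGCtgtctttttgg
SREBF2, 7mer-A1: cagggccacctTGATGCAggctggaatgt
INSIG2, 7mer-A1: ggacctctcaaTGATGCAtatgtttcata

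Promoters of 4 members are printed because SREBF2 and SCD were lower with miR-4711-5p, FDPS fell the most of the sterol enzymes against Parent, and INSIG1 was called in opposite directions against the 2 controls. Each is the stretch of 250 bases before the RefSeq start site in GRCh38.p14, 5′ to 3′ on the plus strand. RefSeq windows (250 bases before to 50 after a start site) were at hand for 30 of the 35 members, and there was none for ACAT2, FDFT1, SQLE, FASN and ABCG1. The letters searched on both strands were TCACNCCAC for the sterol regulatory element that SREBPs bind, CCAAT for the box of the cofactor NF-Y (ATTGG on the opposite strand) and CACGTG for the E-box. Matches are in capitals, and no match overlapped another in these 4 stretches.
SREBF2, chr22:41832855-41833104: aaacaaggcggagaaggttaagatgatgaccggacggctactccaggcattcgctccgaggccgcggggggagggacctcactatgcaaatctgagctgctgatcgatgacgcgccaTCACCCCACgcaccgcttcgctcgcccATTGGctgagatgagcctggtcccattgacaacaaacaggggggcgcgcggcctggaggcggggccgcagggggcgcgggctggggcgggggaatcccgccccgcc
INSIG1, chr7:155297628-155297877: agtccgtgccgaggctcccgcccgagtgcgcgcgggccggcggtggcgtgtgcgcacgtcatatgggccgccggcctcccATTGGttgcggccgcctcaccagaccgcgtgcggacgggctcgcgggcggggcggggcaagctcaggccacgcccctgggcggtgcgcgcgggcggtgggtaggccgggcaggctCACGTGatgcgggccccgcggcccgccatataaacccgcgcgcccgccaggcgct
FDPS, chr1:155308616-155308865: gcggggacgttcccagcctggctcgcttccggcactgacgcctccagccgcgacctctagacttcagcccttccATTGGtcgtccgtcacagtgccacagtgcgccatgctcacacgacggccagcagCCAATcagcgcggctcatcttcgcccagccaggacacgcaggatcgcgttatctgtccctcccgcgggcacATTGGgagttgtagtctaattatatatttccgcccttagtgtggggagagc
SCD, chr10:100346983-100347232: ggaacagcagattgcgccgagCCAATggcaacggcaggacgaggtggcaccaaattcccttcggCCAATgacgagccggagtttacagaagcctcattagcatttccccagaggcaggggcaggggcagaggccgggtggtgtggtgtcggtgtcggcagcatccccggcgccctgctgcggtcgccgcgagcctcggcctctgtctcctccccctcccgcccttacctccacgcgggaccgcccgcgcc

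The TCACNCCAC letters were in 1 of the 30 member windows (SREBF2, at position -133 from the start site) and in 1.07% of the windows of tested genes. CCAAT was in 19 of the 30 (63.3%) and in 34.9% of the windows of tested genes, and CACGTG was in 5 (16.7%) and in 9.36%. These shares describe letters in a short window, and no binding was measured.

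FPKM keeps no read count, so depth in reads is unknown. An estimate from the steps between low values, on which only 29.0% to 36.6% of the low genes compared fell, put the libraries between 0.751 and 1.21 times the depth of the first Parent library. Summed FPKM were 543074 and 550772 in Parent, 515348 and 515688 in NC-1, and 493145 and 499659 with miR-4711-5p. All 8 epithelial markers checked were above 1 FPKM in each library. Of the blood cell, fibroblast and endothelial markers, 5 of 8, 5 of 6 and 3 of 4 were under 1 FPKM in each library. The epithelial sum was 7728 and 8266 FPKM in Parent, 7461 and 8020 in NC-1, and 6347 and 6445 with miR-4711-5p. Within that sum both miR-4711-5p libraries lay below the 4 controls for KRT7, KRT17, KRT19 and CDH1 (CDH1 had means of 115.3, 109.5 and 29.6 FPKM) and above them for KRT18, EPCAM and CLDN4. The blood cell sum, carried by LAPTM5 and CORO1A, was from 292 to 319 FPKM in the controls and 178 and 179 with miR-4711-5p, and the part of either shift in the results below was not tested.

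On the deposited scale, most enzymes of the pathway from acetyl-CoA to sterols and fatty acids were lower with miR-4711-5p, and both SREBP genes were lower. Against Parent, limma called 19 of the 35 members lower and 6 higher, and left 10 uncalled. Of the 12040 genes tested, 24.7% were called lower and 18.7% higher in that comparison, or 43.4% either way. Against NC-1, 20 members were lower, 2 higher and 13 uncalled, beside 21.2% of all genes lower and 18.4% higher (39.6% either way). All 35 members passed the filter of a mean of 1 FPKM, ABCG1 only through its level with miR-4711-5p, so that its call was tied to the filter, and it is among the 6 and the 2 called higher. In 17 of the 35 members (48.6%), the call was lower against both controls and both miR-4711-5p libraries lay below the 4 control libraries, which held for 15.4% of all genes tested. The same in the upward direction held for 10% of all genes and for no member other than ABCG1, which for the reason just given is not set against that share. Whatever the calls, both miR-4711-5p libraries lay below the 4 controls in 18 members and above them in 3, ABCG1 included, beside 26.3% and 23.8% of all genes. The comparisons with Parent and with NC-1 share the miR-4711-5p libraries, so they are not independent of each other. The members were chosen with earlier results of these data known, so the shares of members and of all genes are set side by side only as a description.

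**Figure D1:**
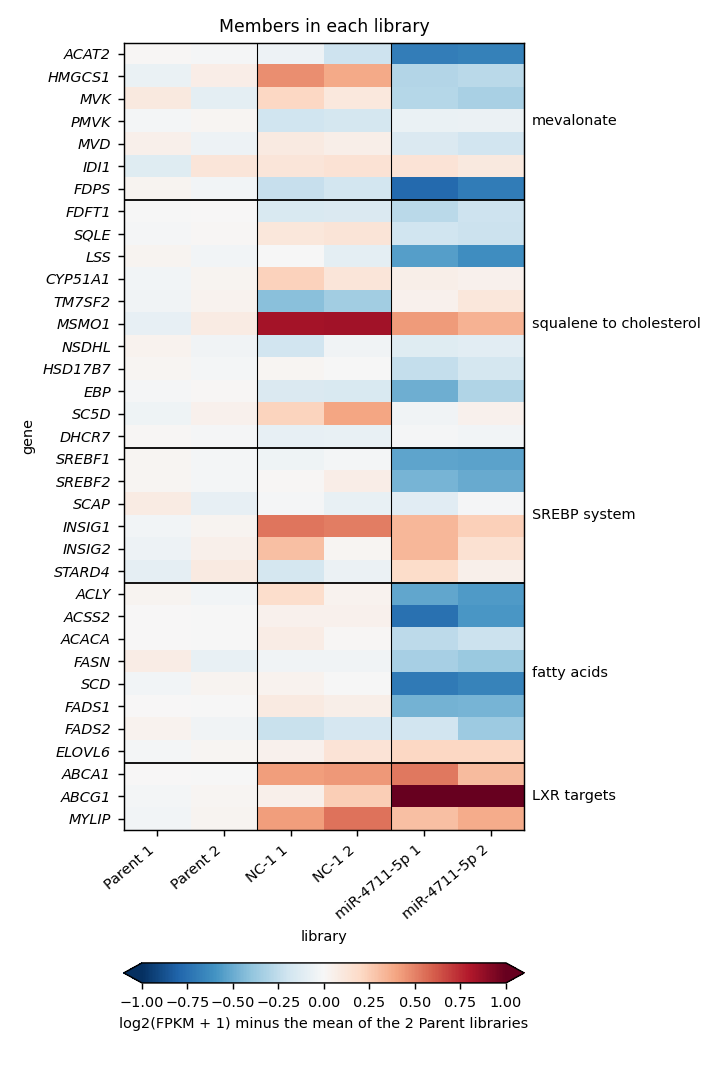
Each row is a member and each column a library, and the colour gives log2(FPKM + 1) minus the mean of the 2 Parent libraries, from blue (lower) to red (higher), with colours saturated beyond 1 in either direction. The 2 miR-4711-5p columns are blue across most of the mevalonate and fatty acid rows, MSMO1, HMGCS1 and INSIG1 are red in NC-1, and ABCG1 is beyond the colour scale with miR-4711-5p.

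The direction counts depended on how the libraries were scaled. When each library was rescaled to the same total of FPKM, a setting chosen after the data were seen, the median log2 fold change over all genes against Parent rose from -0.01 to 0.11. On that scale 11 members were lower and 11 higher than in Parent, and of all genes 4010 were higher and 1776 lower, where the values as deposited gave 2255 and 2975. The calls lost there were those of HMGCS1, MVK, MVD, FDFT1, SQLE, HSD17B7, ACACA and FADS2 against Parent (adjusted p from 0.0699 to 0.624), and IDI1, CYP51A1, TM7SF2, DHCR7 and INSIG2 were then called higher. Against NC-1 it gave 19 members lower and 5 higher, beside 2083 lower and 2923 higher of all genes, with HSD17B7 lost (adjusted p = 0.0521) and PMVK, STARD4 and ELOVL6 gained. Measured from the median of all genes, the branch medians moved less.

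The fatty acid branch was lower with miR-4711-5p in 7 of 8 genes against Parent and in 6 of 8 against NC-1, and the sterol branch in 10 of 18 and 11 of 18. Of all genes tested, 24.7% were lower against Parent and 21.2% against NC-1. The summed FPKM of the 8 fatty acid enzymes was 684 in both Parent libraries, 706 and 686 in NC-1, and 464 and 471 with miR-4711-5p. SCD made up from 50.2% to 56.6% of that sum, and without SCD it was 310 and 297, 316 and 307, and 232 and 231 FPKM. The 18 sterol enzymes summed to 1101 and 1113 FPKM in Parent, 1140 and 1129 in NC-1, and 929 and 944 with miR-4711-5p. Both sums were therefore lower in each miR-4711-5p library than in any control library, with and without SCD. With equal totals of FPKM, 5 of the 8 fatty acid enzymes and 4 of the 18 sterol enzymes were called lower against Parent, and 6 and 10 against NC-1. On that scale 1 fatty acid and 5 sterol enzymes were called higher against Parent, and 1 and 2 against NC-1. Of all genes, 1776 were lower and 4010 higher against Parent there, and 2083 and 2923 against NC-1.

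The median log2 fold change of the fatty acid branch was -0.41 against Parent and -0.43 against NC-1, and that of the sterol branch was -0.19 and -0.25. Over all genes tested, the medians were -0.0127 and 0.00379. Measured from the median of all genes, the fatty acid branch stood at -0.40 and the sterol branch at -0.17 against Parent, and at -0.38 and -0.16 with equal totals of FPKM. Leaving out the first miR-4711-5p library reduced the sterol enzymes called lower against Parent from 10 to 6 (and those of all genes from 2975 to 1915), and leaving out each of the other libraries left 7 to 9. No test compares the branches with each other, since genes of a list are not replicates of a condition.

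**Figure D2:**
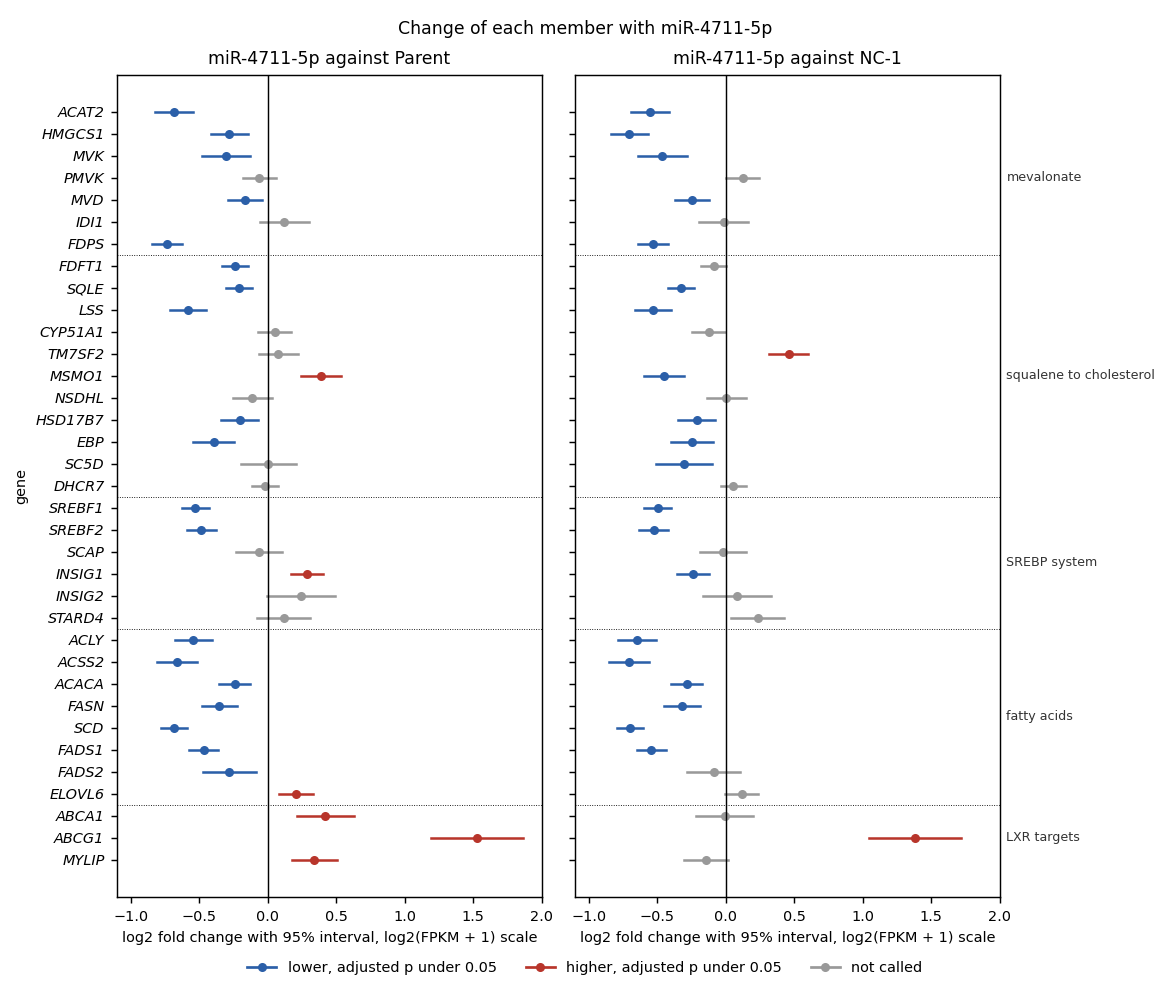
Points are log2 fold changes on the log2(FPKM + 1) scale with miR-4711-5p against Parent (left) and against NC-1 (right), with 95% intervals from limma, and blue and red mark genes called lower and higher. The fatty acid enzymes from ACLY to FADS1 lie left of 0 in both panels, MSMO1 and INSIG1 change side between the panels, and ABCG1 lies farthest right at 1.53 and 1.39.

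Both SREBP genes were lower with miR-4711-5p, and the regulators around them moved less or in different directions. SREBF1 (chr17:17713713-17740316, minus strand, GRCh37) had 64.3 and 62.7 FPKM in Parent, 61.6 and 62.5 in NC-1, and 43.8 and 43.6 with miR-4711-5p. Its mean with miR-4711-5p was 0.688 of that in Parent (log2 fold change -0.53, SE 0.042, adjusted p = 0.000102) and 0.704 of that in NC-1 (-0.50, SE 0.042, adjusted p = 0.00016). The miR-4711-5p libraries were nearly equal and lay below all 4 control libraries. SREBF2 (chr22:42229109-42303310, plus strand), which has the 7mer-A1 site and the sterol regulatory element letters printed above, had 58.4 and 56.8 FPKM in Parent, 58.2 and 60.5 in NC-1, and 41.4 and 40.3 with miR-4711-5p. The level with miR-4711-5p was 0.710 of that in Parent (log2 fold change -0.48, SE 0.046, adjusted p = 0.000225) and 0.689 of that in NC-1 (-0.53, SE 0.046, adjusted p = 0.000182). For both genes the calls held in each scaling, model and left-out library tried, but not where a ratio of at least 1.5 was required. SREBF1 overlaps RAI1 on the opposite strand, and the strand option of the counting is not given in the sources used here.

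INSIG1 (chr7:155089486-155101945, plus strand), which retains the SREBP escort in the endoplasmic reticulum and is itself an SREBP target, had 51.2 and 53.4 FPKM in Parent, 76.1 and 75.1 in NC-1, and 66.1 and 61.8 with miR-4711-5p. The miR-4711-5p libraries fell between the 2 controls, above Parent and below NC-1. Its mean was 1.22 of that in Parent (log2 fold change 0.29, SE 0.050, adjusted p = 0.00362) and 0.846 of that in NC-1 (-0.24, SE 0.050, adjusted p = 0.00851), so the direction of this gene depends on the control used. Without the second miR-4711-5p library, the difference from NC-1 was not called (adjusted p = 0.066). INSIG2, its relative with a 7mer-A1 site, had 9.998 and 10.8 FPKM in Parent, 13.01 and 10.5 in NC-1, and 13.4 and 11.7 with miR-4711-5p. Both miR-4711-5p libraries lay above Parent, and NC-1 overlapped each of the other groups. The log2 fold change was 0.24 against Parent (adjusted p = 0.103) and 0.08 against NC-1 (adjusted p = 0.557). SCAP, the escort, was between 16.3 and 18.9 FPKM in all 6 libraries, with log2 fold changes of -0.06 and -0.02 that were not called. STARD4, a carrier that moves sterol between membranes, was between 12.6 and 16.5 FPKM and was not called in either comparison (adjusted p = 0.288 and 0.0591).

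In the mevalonate steps, 5 of 7 enzymes were lower with miR-4711-5p against both controls with no overlap, which held for 15.4% of all genes tested. PMVK and IDI1 were not called against either control. ACAT2 (chr6:160183077-160200144, plus strand), which joins acetyl-CoA units at the entry of the pathway, had 67.6 and 66.3 FPKM in Parent, 64.4 and 57.7 in NC-1, and 41.1 and 41.5 with miR-4711-5p. The miR-4711-5p mean was 0.617 of that in Parent (log2 fold change -0.68, SE 0.058, adjusted p = 0.000144) and 0.676 of that in NC-1 (-0.55, SE 0.058, adjusted p = 0.000435). Its 2 libraries with miR-4711-5p were nearly equal and clear of all 4 controls, and its calls held under each alternative tried, apart from a required ratio of at least 1.5 against NC-1. ACAT2 overlaps TCP1 and SOD2 on the opposite strand.

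HMGCS1 (chr5:43287572-43313614, minus strand), the synthase that makes the precursor of mevalonate, had 90.7 and 99.5 FPKM in Parent, 132 and 124 in NC-1, and 77.5 and 78.6 with miR-4711-5p. NC-1 was the highest group, Parent was in the middle and miR-4711-5p the lowest, with no overlap. The mean with miR-4711-5p was 0.821 of that in Parent (log2 fold change -0.28, SE 0.057, adjusted p = 0.00709) and 0.610 of that in NC-1 (-0.70, SE 0.057, adjusted p = 0.000133). The call against Parent was lost without the first miR-4711-5p library (adjusted p = 0.0532) and with equal totals of FPKM (adjusted p = 0.0887).

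MVK, mevalonate kinase (chr12:110011060-110035930, plus strand), had 23.3 and 20.2 FPKM in Parent, 25.2 and 23.5 in NC-1, and 17.6 and 17.1 with miR-4711-5p. Here the miR-4711-5p mean was 0.799 of that in Parent (log2 fold change -0.30, SE 0.076, adjusted p = 0.0154) and 0.714 of that in NC-1 (-0.46, SE 0.076, adjusted p = 0.00299). Both miR-4711-5p libraries were below the controls, but the gap to the lower Parent library was within the spread of Parent, and the call against Parent was lost without the first Parent library (adjusted p = 0.0709) or either miR-4711-5p library (0.0689 and 0.0888). MVK overlaps MMAB on the opposite strand. MVD, which turns mevalonate diphosphate into isopentenyl diphosphate (chr16:88718343-88729569, minus strand), had 39.3 and 36.6 FPKM in Parent, 40.5 and 39.6 in NC-1, and 34.2 and 33.1 with miR-4711-5p. MVD with miR-4711-5p was 0.886 of that in Parent (log2 fold change -0.17, SE 0.052, adjusted p = 0.0356) and 0.840 of that in NC-1 (-0.25, SE 0.052, adjusted p = 0.00904). The gap between the higher miR-4711-5p library and the lower Parent library was smaller than the spread between the Parent libraries. Its call against Parent was lost with any library but the second Parent library left out (highest adjusted p = 0.167) and also without the filter on low values (0.0504), with median-of-ratios scaling (0.0518), with only the 2 groups compared (0.0506) or with no trend (0.063), and that against NC-1 without the second miR-4711-5p library (0.0682).

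FDPS, which makes farnesyl diphosphate, the branch point to sterols and prenylated proteins (chr1:155278539-155290457, plus strand), had 165 and 159 FPKM in Parent, 138 and 142 in NC-1, and 94.1 and 99.2 with miR-4711-5p. The 3 groups stood in the order Parent, NC-1, miR-4711-5p without overlap. Its mean with miR-4711-5p was 0.597 of that in Parent (log2 fold change -0.74, SE 0.047, adjusted p = 3.39e-05) and 0.690 of that in NC-1 (-0.53, SE 0.047, adjusted p = 0.000188), and NC-1 itself was 0.865 of Parent (adjusted p = 0.0182, lost at 0.0929 without the first Parent library, at 0.0832 without the first NC-1 library and at 0.0692 with equal totals of FPKM). FDPS has 8 annotated pseudogenes, so reads can be split between copies and its level is uncertain to that extent. PMVK, phosphomevalonate kinase, was 13.04 and 13.12 FPKM with miR-4711-5p, between the values of NC-1 (11.82 and 12.02) and Parent (13.5 and 13.9). IDI1, an isomerase with 3 annotated pseudogenes, ranged from 46.5 to 56.1 FPKM over the 6 libraries, with NC-1 above Parent and miR-4711-5p overlapping each control.

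From squalene to cholesterol, 4 of 11 enzymes were lower with miR-4711-5p against both controls with no overlap, namely SQLE, LSS, HSD17B7 and EBP. That held for 15.4% of all genes tested. SQLE, the epoxidase that adds oxygen to squalene, had 72.7 and 73.7 FPKM in Parent, 79.2 and 80.1 in NC-1, and 63.5 and 62.9 with miR-4711-5p. The miR-4711-5p libraries were the lowest and NC-1 the highest. Its mean with miR-4711-5p was 0.863 of that in Parent (log2 fold change -0.21, SE 0.040, adjusted p = 0.00546) and 0.794 of that in NC-1 (-0.33, SE 0.040, adjusted p = 0.000825). With equal totals of FPKM, the call of SQLE against Parent was lost (adjusted p = 0.196).

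LSS, the cyclase that folds squalene epoxide into lanosterol (chr21:47608055-47648738, minus strand), showed the largest difference from NC-1 among these 11 genes. It had 29.4 and 28.2 FPKM in Parent, 28.7 and 26.8 in NC-1, and 19.4 and 18.4 with miR-4711-5p. Both miR-4711-5p libraries lay clear below each control library. The mean of LSS was 0.656 of that in Parent (log2 fold change -0.58, SE 0.057, adjusted p = 0.000259) and 0.681 of that in NC-1 (-0.53, SE 0.057, adjusted p = 0.000454), and these calls held under each alternative tried, apart from a required ratio of at least 1.5 against NC-1.

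EBP, a sterol isomerase (chrX:48380187-48387104, plus strand), had 78.4 and 80.01 FPKM in Parent, 71.5 and 71.1 in NC-1, and 56.1 and 64.1 with miR-4711-5p. The miR-4711-5p libraries differed more from each other than those of either control did, and both stayed below the controls. Its mean was 0.759 of that in Parent (log2 fold change -0.40, SE 0.064, adjusted p = 0.00261) and 0.843 of that in NC-1 (-0.25, SE 0.064, adjusted p = 0.0206), and the call against NC-1 was lost without either NC-1 library (adjusted p = 0.0851 and 0.0763) or the first miR-4711-5p library (0.0986), and without the filter on low values (0.0517). HSD17B7, a sterol reductase with 2 annotated pseudogenes (chr1:162760492-162782613, plus strand), had 10.03 and 9.80 FPKM in Parent, 10.1 and 9.90 in NC-1, and 8.27 and 8.68 with miR-4711-5p. The values with miR-4711-5p were close below the controls. HSD17B7 stood at 0.855 of that in Parent (log2 fold change -0.20, SE 0.057, adjusted p = 0.0245) and 0.850 of that in NC-1 (-0.21, SE 0.057, adjusted p = 0.023), and each call was lost without any 1 of the 4 libraries it compares (adjusted p from 0.0622 to 0.147).

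The other 7 late sterol enzymes did not share a direction. FDFT1, squalene synthase, had 200.3 and 202 FPKM in Parent, 181 and 182 in NC-1, and 167 and 174 with miR-4711-5p, which set miR-4711-5p below both controls, and was called against Parent (log2 fold change -0.24, adjusted p = 0.00315) but not against NC-1 (-0.09, adjusted p = 0.12). MSMO1, a sterol methyl oxidase, had 44.7 and 50.02 FPKM in Parent, 85.2 and 85.4 in NC-1, and 63.8 and 60.6 with miR-4711-5p. NC-1 was far above Parent, and miR-4711-5p lay between them without overlap. MSMO1 was thus higher than Parent (log2 fold change 0.39, adjusted p = 0.0023) and lower than NC-1 (-0.45, adjusted p = 0.00131).

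TM7SF2, a sterol reductase, had 12.9 and 13.5 FPKM in Parent, 9.60 and 10.2 in NC-1, and 13.6 and 14.4 with miR-4711-5p. It was the only late sterol enzyme called higher against NC-1 (log2 fold change 0.46, adjusted p = 0.00115), while the difference from Parent was 0.08 (adjusted p = 0.335). TM7SF2 overlaps VPS51 on the same strand, so reads of the shared stretch may count for either gene. SC5D, a sterol desaturase with the 2 seed sites printed above, was 4.49 and 4.78 FPKM with miR-4711-5p and 4.45 and 4.78 in Parent, so these groups overlapped fully. It was lower than in NC-1 (5.54 and 6.39 FPKM, log2 fold change -0.30, adjusted p = 0.027), a call lost without the second NC-1 library (0.136) or either miR-4711-5p library (0.143 and 0.0791), and without the filter on low values (0.0732). CYP51A1, NSDHL and DHCR7, which remove methyl groups from lanosterol or reduce the last double bond, had log2 fold changes between -0.12 and 0.06 and were not called against either control. CYP51A1 has 3 annotated pseudogenes and overlaps AKAP9 on the opposite strand.

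In the fatty acid branch, ACLY, ACSS2, ACACA, FASN, SCD and FADS1 were lower against both controls, with no overlap between miR-4711-5p and either control. That held for 15.4% of all genes tested. ACLY, which releases acetyl-CoA from citrate (chr17:40023170-40086795, minus strand), had 76.7 and 73.8 FPKM in Parent, 85.3 and 77.1 in NC-1, and 52.1 and 50.5 with miR-4711-5p. Both miR-4711-5p libraries were clear of the controls. Its mean was 0.682 of that in Parent (log2 fold change -0.54, SE 0.058, adjusted p = 0.000403) and 0.632 of that in NC-1 (-0.65, SE 0.058, adjusted p = 0.000205). ACSS2, which makes acetyl-CoA from acetate (chr20:33459949-33515765, plus strand), had 36.3 and 36.1 FPKM in Parent, 37.2 and 37.3 in NC-1, and 21.1 and 23.9 with miR-4711-5p. Among the fatty acid genes it showed the largest difference from NC-1. The mean of ACSS2 was 0.621 of that in Parent (log2 fold change -0.67, SE 0.062, adjusted p = 0.000217) and 0.604 of that in NC-1 (-0.71, SE 0.062, adjusted p = 0.000193). It overlaps GGT7 on the opposite strand.

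ACACA, the carboxylase that makes malonyl-CoA (chr17:35441927-35766927, minus strand), had 30.7 and 30.6 FPKM in Parent, 32.3 and 30.96 in NC-1, and 25.3 and 26.2 with miR-4711-5p. The drop was smaller than for its neighbours in the pathway but clear of all 4 controls. ACACA was 0.841 of that in Parent (log2 fold change -0.24, SE 0.049, adjusted p = 0.0066) and 0.814 of that in NC-1 (-0.29, SE 0.049, adjusted p = 0.00348), and the call against Parent was lost without the first miR-4711-5p library (adjusted p = 0.0553). FASN, the fatty acid synthase (chr17:80036214-80056170, minus strand), had 103 and 93.4 FPKM in Parent, 95.95 and 95.7 in NC-1, and 77.7 and 75.5 with miR-4711-5p. Its highest value was the first Parent library and its lowest the second miR-4711-5p library. The mean of FASN was 0.780 of that in Parent (log2 fold change -0.35, SE 0.055, adjusted p = 0.00214) and 0.799 of that in NC-1 (-0.32, SE 0.055, adjusted p = 0.00369), and both calls held under each alternative tried, apart from a required ratio of at least 1.5.

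SCD, the desaturase that makes monounsaturated fatty acids (chr10:102106990-102124583, plus strand), had the highest level of the 35 members in each library, with 375 and 388 FPKM in Parent, 390 and 379.5 in NC-1, and 233 and 239.8 with miR-4711-5p. The 4 control libraries lay close together and both miR-4711-5p libraries far below them. SCD with miR-4711-5p was 0.620 of that in Parent (log2 fold change -0.69, SE 0.041, adjusted p = 2.72e-05) and 0.614 of that in NC-1 (-0.70, SE 0.041, adjusted p = 3.00e-05), and these calls held under each alternative tried. It has 1 annotated pseudogene. FADS1, a desaturase of polyunsaturated fatty acids (chr11:61567099-61596790, minus strand), had 35.6 and 35.5 FPKM in Parent, 37.96 and 37.03 in NC-1, and 25.3 and 25.5 with miR-4711-5p. The 2 libraries of each group differed little, and the miR-4711-5p group was the lowest. Its mean was 0.715 of that in Parent (log2 fold change -0.47, SE 0.044, adjusted p = 0.00023) and 0.678 of that in NC-1 (-0.54, SE 0.044, adjusted p = 0.000139). FADS1 and FADS2 overlap on opposite strands, so reads of either may count for both where strand was not used.

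FADS2 and ELOVL6 were called against Parent only, in opposite directions. FADS2, the other desaturase of this pathway, had 6.07 and 5.71 FPKM in Parent, 4.92 and 5.14 in NC-1, and 5.02 and 4.35 with miR-4711-5p, and the second miR-4711-5p library was the lowest. It was called against Parent (log2 fold change -0.28, adjusted p = 0.0298) and not against NC-1 (-0.09, adjusted p = 0.433), and the former call was lost without either Parent library (0.132 and 0.0671), without the second miR-4711-5p library (0.166) or without the filter on low values (0.0772). ELOVL6, an elongase of saturated chains, had 21.1 and 21.6 FPKM in Parent, 22.1 and 23.6 in NC-1, and 24.8 and 24.7 with miR-4711-5p, and both miR-4711-5p libraries were above the 4 controls. It was called higher than Parent (log2 fold change 0.21, adjusted p = 0.0165) and not against NC-1 (0.12, adjusted p = 0.121), and the former call was lost without the first Parent library (0.0718) or either miR-4711-5p library (0.0898 and 0.077).

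**Figure D3:**
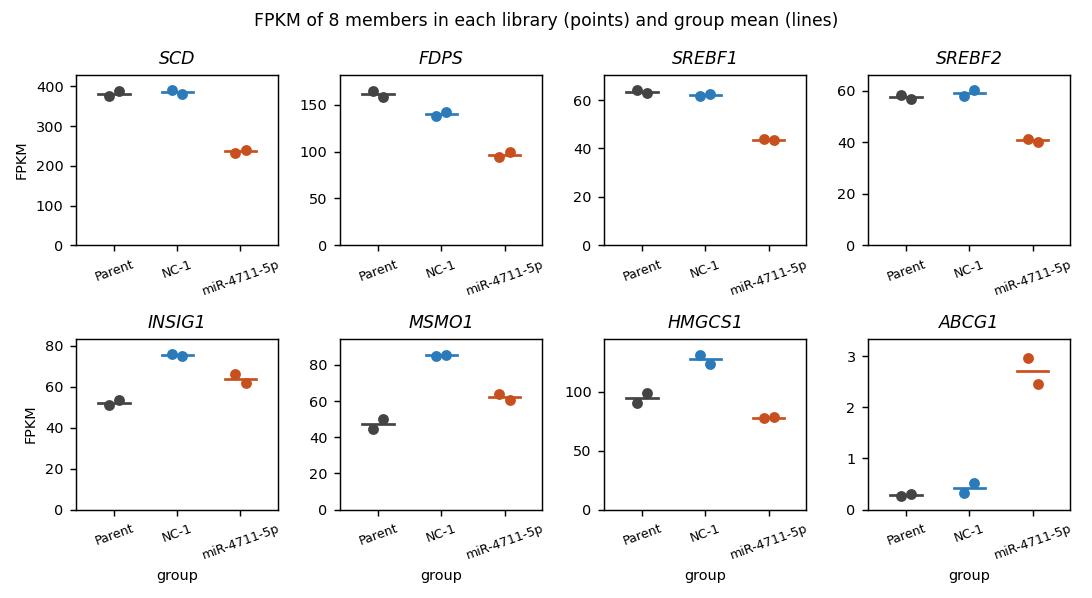
Each panel shows the FPKM of a gene in the 2 libraries of each group (points) and the group mean (line), on an axis that starts at 0. SCD, FDPS, SREBF1 and SREBF2 are lowest with miR-4711-5p, INSIG1 and MSMO1 lie between Parent and NC-1, HMGCS1 is highest in NC-1, and ABCG1 is near 0 in both controls.

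Of the 3 LXR targets, ABCA1 and MYLIP were called against Parent only, and ABCG1 passed the filter only through its miR-4711-5p libraries. ABCG1, a transporter that exports sterol to lipoproteins (chr21:43619799-43717354, plus strand), had 0.265 and 0.296 FPKM in Parent, 0.324 and 0.516 in NC-1, and 2.96 and 2.46 with miR-4711-5p. It was low in the 4 control libraries and higher in both miR-4711-5p libraries. The mean was 9.66 times that of Parent (log2 fold change 1.53 on the log2(FPKM + 1) scale) and 6.46 times that of NC-1 (1.39), given as a description. In the limma fit with no minimum level, which does not tie the test to the filter, the adjusted p was 0.000885 against Parent and 0.00136 against NC-1. Ratios from such low values may rest on few reads, and the scale with a pseudocount of 1 understates them. ABCA1, which exports sterol to apolipoprotein, had 3.43 and 3.41 FPKM in Parent, 4.90 and 4.98 in NC-1, and 5.36 and 4.50 with miR-4711-5p. ABCA1 was higher than Parent (log2 fold change 0.42, adjusted p = 0.00794, lost at 0.0572 without the first miR-4711-5p library) and overlapped NC-1 (-0.01, adjusted p = 0.961). MYLIP, a ubiquitin ligase for lipoprotein receptors, had 6.20 and 6.45 FPKM in Parent, 8.79 and 9.70 in NC-1, and 8.04 and 8.49 with miR-4711-5p. Both miR-4711-5p libraries lay between the 2 controls. MYLIP was higher than Parent (0.34, adjusted p = 0.0073, lost at 0.0572 without the second miR-4711-5p library) and not called against NC-1 (-0.14, adjusted p = 0.142).

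NC-1 against Parent gives the differences between the controls themselves. Limma called 7 members higher and 4 lower in NC-1, beside 12.1% and 15.1% of all genes tested (27.2% either way). Higher were HMGCS1, CYP51A1, MSMO1 and SC5D of the sterol branch, INSIG1, and the LXR targets ABCA1 and MYLIP. The largest was MSMO1 at 1.80 times Parent (log2 fold change 0.84, SE 0.061, adjusted p = 0.000464). INSIG1 was 1.45 times Parent (0.52, SE 0.05, adjusted p = 0.00121), and HMGCS1 1.35 times (0.42, SE 0.057, adjusted p = 0.00337). PMVK, FDPS, FDFT1 and TM7SF2 were lower, TM7SF2 most at 0.749 of Parent (-0.38, SE 0.061, adjusted p = 0.00577).

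None of the 8 fatty acid enzymes was called by limma between NC-1 and Parent (0 at an unadjusted p under 0.05), with log2 fold changes from -0.19 to 0.11. Neither SREBF1 nor SREBF2 was called there. The counts of this comparison depended on single libraries, since leaving out any 1 of the 6 left 4 or 5 members higher and 1 or 2 lower, the fewest without the first Parent library. The calls lost in at least 1 of these fits were those of PMVK, FDPS, FDFT1, CYP51A1, SC5D and ABCA1, and that of ABCA1 was lost without any 1 of the 4 libraries compared (adjusted p up to 0.0705). Over all genes, the calls went from 1456 higher and 1823 lower to between 622 and 1027 higher and between 733 and 1269 lower in the same fits. With equal totals of FPKM, 11 were higher and 1 lower, beside 2327 higher and 1000 lower of the 12040 genes, as MVK, SQLE, ACLY and FADS1 were then called higher and PMVK, FDPS and FDFT1 were no longer called lower.

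Other genes of lipid metabolism were taken from 5 lists, and their counts stand beside the same shares of all genes given above. Those shares were 24.7% lower and 18.7% higher against Parent, and 21.2% lower and 18.4% higher against NC-1. Of 8 other genes of SREBP processing and sterol sensing, 1 was lower and 2 higher against each control (6 higher against Parent with equal totals of FPKM). The 2 higher against Parent became 1 without the first Parent or the second miR-4711-5p library, and the 1 lower against NC-1 became 2 without the first miR-4711-5p library. ERLIN1, a membrane protein of the endoplasmic reticulum that takes part in degrading other membrane proteins, had 31.1 and 31.5 FPKM in Parent, 31.1 and 30.7 in NC-1, and 12.2 and 12.5 with miR-4711-5p. It was 0.396 of Parent (log2 fold change -1.27, SE 0.047, adjusted p = 4.76e-06) and 0.4 of NC-1 (-1.25, SE 0.047, adjusted p = 5.8e-06), a larger drop than in any of the 35 members. Its 3′ UTR holds 2 matches to the seed, printed here because of the size of that drop, at chr10:101911626-101911632 and chr10:101910835-101910841 (GRCh37, minus strand), the first in 2 of its 2 coding transcripts and the second in 1. Of the tested genes with an annotated 3′ UTR, 18.5% hold a site. In the 5 lists, sites are held by lowered genes such as LRP8 and ACADM. They are also held by ACSL3 (3 sites), NUS1 and SOAT1, which were called against neither control. Whether sites go with changes was not tested.
ERLIN1, 7mer-m8: atgaggaaagtCTGATGCtaagatactgc
ERLIN1, 7mer-m8: tcacaagcacaCTGATGCtccttaagatt

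RNF139, a ubiquitin ligase of the same compartment, was higher against both controls (log2 fold changes 0.40 and 0.36). Among 17 other isoprenoid and sterol genes, 3 were lower and 4 higher against each control (8 higher against Parent and 7 against NC-1 with equal totals, and as few as 2 against NC-1 with a library left out). LBR, an inner nuclear membrane protein with the same sterol reductase activity as TM7SF2, had 22.97 and 23.4 FPKM in Parent, 36.1 and 35.8 in NC-1, and 14.7 and 12.9 with miR-4711-5p. It was 0.595 of Parent (adjusted p = 0.000186) and 0.384 of NC-1 (adjusted p = 1.39e-05), whereas TM7SF2 was not called against Parent and was 1.41 times NC-1. LRP8, a lipoprotein receptor, had 15.4 and 15.4 FPKM in Parent, 16.9 and 16.9 in NC-1, and 8.79 and 8.70 with miR-4711-5p and was lower against both (log2 fold changes -0.75 and -0.88). GRAMD1A, a sterol transfer protein, was higher against both (0.78 and 0.61), the latter call being lost without the second miR-4711-5p library (adjusted p = 0.0552).

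Of 9 genes of fatty acid oxidation, the opposite process to synthesis, 6 were lower with miR-4711-5p against Parent and 8 against NC-1, and none was higher (0 against either at an unadjusted p under 0.05 in limma). CPT1A, which admits long-chain fatty acids to mitochondria, had 41.8 and 37.96 FPKM in Parent, 38.4 and 36.2 in NC-1, and 16.2 and 15.7 with miR-4711-5p. It was 0.401 of Parent (log2 fold change -1.27, SE 0.062, adjusted p = 1.2e-05) and 0.428 of NC-1 (-1.17, SE 0.062, adjusted p = 1.89e-05). An 8mer lies in its longest 3′ UTR at chr11:68525068-68525075 (GRCh37, minus strand), in 1 of 5 coding transcripts, and is printed since no member has this longest kind of site. Of the other genes of the 5 lists, PPARA, SCD5, HACD2, LPIN1 and CH25H also hold an 8mer, which 3.62% of the tested genes have.
CPT1A, 8mer: aacgagctcttCTGATGCAaaccaaatgaa

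ACADM, a dehydrogenase of medium chains, was lower against both controls (log2 fold changes -0.41 and -0.46). PPARA, a receptor that switches on oxidation genes, was lower than NC-1 (-0.42, adjusted p = 0.00847, lost at 0.0535 without the first miR-4711-5p library) and not called against Parent (-0.23, adjusted p = 0.0748). The count of 6 against Parent was 3 with equal totals of FPKM and 3 without the first miR-4711-5p library, and that of 8 against NC-1 was 4 without that library. With a required ratio of at least 1.5, CPT1A was the only oxidation gene called, 1 against each control, beside 769 and 744 of all genes called lower. Of 29 other genes of fatty acid and glycerolipid synthesis, 25 were tested, of which 10 were lower and 2 higher than Parent, and 8 lower and 5 higher than NC-1. With a library left out, the counts called lower were 7 to 10 and 7 to 8, and those called higher 0 to 3 and 1 to 5, and with equal totals 9 and 8 were higher. ACSL1, which activates long-chain fatty acids, had 19.2 and 21.1 FPKM in Parent, 21.9 and 22.5 in NC-1, and 12.9 and 12.9 with miR-4711-5p and log2 fold changes of -0.60 and -0.74. FADS3, of the same family as FADS1, had 18.6 and 17.5 FPKM in Parent, 18.4 and 20.1 in NC-1, and 11.2 and 11.3 with miR-4711-5p and log2 fold changes of -0.63 and -0.72. SCD5, a relative of SCD, had log2 fold changes of -0.39 and -0.56. Of 6 LXR and oxysterol genes, 3 were tested. NR1H2, an LXR receptor, was higher than Parent (0.51, adjusted p = 0.000582), LPCAT3, an LXR target that remodels phospholipids, was lower than Parent (-0.26, adjusted p = 0.00281, lost at 0.0522 with equal totals), and none was called against NC-1 (1, lower, at an unadjusted p under 0.05 in limma).

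**Figure D4:**
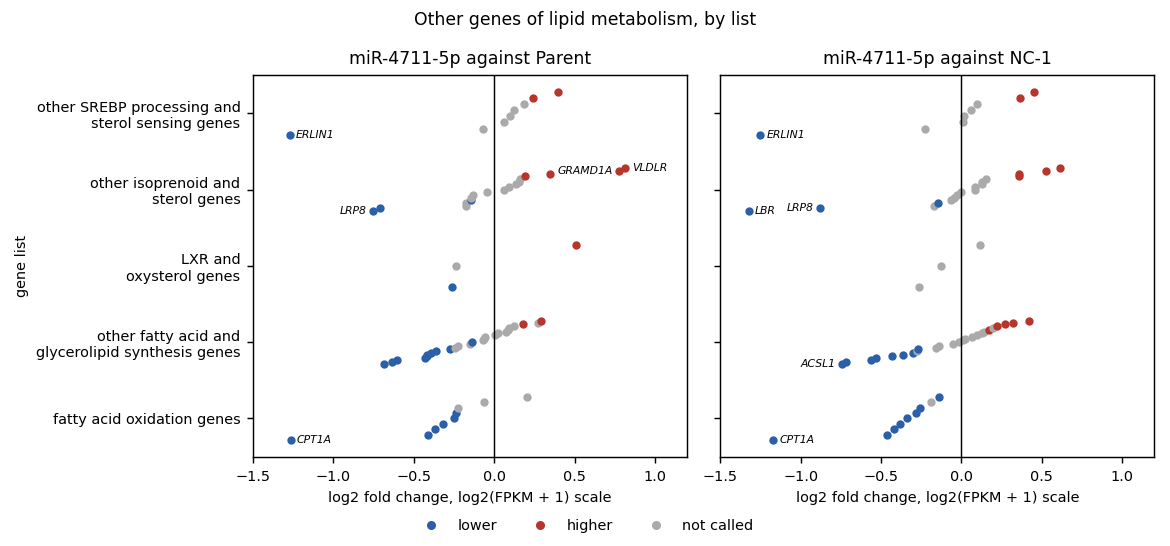
Each point is a gene of 1 of 5 lists of other lipid genes, placed by its log2 fold change on the log2(FPKM + 1) scale with miR-4711-5p against Parent (left) or NC-1 (right), and blue and red mark genes called lower and higher. ERLIN1, CPT1A and, against NC-1, LBR lie farthest left, below -1.1, and the fatty acid oxidation genes called lie left of 0 in both panels.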

How the data were processed

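RNA of BxPC-3 cells was sequenced in 6 libraries, 2 each of Parent, NC-1 and miR-4711-5p, grouped by their labels. The authors made stranded mRNA libraries, aligned single reads to hg19 and deposited FPKM from the Cufflinks suite. The submitters' processing notes name TopHat2 2.1.1, Bowtie2 2.3.5.1, SAMtools 1.2, Cufflinks 2.2.1 and Cuffdiff, the study's methods name other versions of the first 3 tools and Cuffnorm in place of Cuffdiff, which was not reconciled, and the annotation, strand option and normalization option are not given in the sources used here. FPKM hold no read counts, so no count test and no counting interval was possible.

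From these values log2(FPKM + 1) was computed, a minimum of 1 FPKM was set on each gene's average over the 6 libraries, which 12040 passed, and limma 3.58.1 in R 4.3.3 (trend, 3 groups in 1 fit, 3 residual and 4.15 prior degrees of freedom) gave two-sided p-values with Benjamini-Hochberg adjustment over all genes tested. A gene was called at an adjusted p below 0.05. An exact permutation test of 2 against 2 libraries cannot go below 0.333. On simulated data with 200 changed genes of 12040, changes of 0.4 and 0.8 on the log2 scale were recovered in 64.6% and 95.5% of cases against Parent, with 5.38% of the calls false, and in 64.1% and 95.8% against NC-1, with 6.05% false. In the real data far more genes were called, 43.4% against Parent and 39.6% against NC-1, so these rates need not hold for the calls given here. Figures were drawn with matplotlib 3.10.9 in Python 3.11.15.

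The members and lists were chosen with earlier results of these data known. Genes named were the members, with full values for those called the same way against both controls without overlap, for the largest difference from NC-1 in each group, and for SREBF1, SREBF2, INSIG1, SQLE, FASN and SCD. Of each other list, up to 3 called genes with the largest difference from NC-1 were named, apart from 1 that is not reported here. Alternatives were a pseudocount of 0.1, no filter, median-of-ratios scaling over the tested genes, a replicate block, only the groups compared, no trend, a ratio of at least 1.5, each library left out, and, added after seeing the data, equal totals of FPKM and these alternatives for the other lists.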

Additional observations from a re-analysis of the deposited data

How the results depend on the processing

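The scale of the libraries and the number of libraries limit these results, and with 2 libraries per group the calls near the threshold turn on single libraries. There were 105 tests of members (35 members in 3 comparisons), called or not. A call was lost or gained in none of them with a pseudocount of 0.1, and in 2 with median-of-ratios scaling. It was in 8 without the filter, 3 without the trend and 5 with only the groups compared. The median-of-ratios factors ran only from 0.999 to 1.013, so that scaling could change few calls and is a weak check. With equal totals of FPKM, a call was lost or gained in 24, and 12 uncalled differences also changed sign. The labels number the libraries, but same-numbered libraries did not deviate together (correlations of 0.061, 0.003 and -0.0089), so the numbers were not taken as pairs. With the replicate block, the members called were 19 lower and 6 higher against Parent, and 2 calls of NC-1 against Parent were lost, PMVK (adjusted p = 0.0544) and CYP51A1 (0.0616). The cause of these changes was not tested.

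With equal totals of FPKM, members called against Parent were 11 higher and 11 lower, with 5 sterol enzymes higher and 4 lower, and branch medians of -0.0519 (sterol) and -0.27 (fatty acid). Against NC-1 they were 5 higher, with 2 sterol and 1 fatty acid enzymes higher, and medians of -0.19 and -0.38. For NC-1 against Parent they were 11 higher and 1 lower, with 1 sterol enzyme lower, 2 fatty acid enzymes higher and medians of 0.0578 and 0.13. Log2 fold changes that reversed there were, against Parent, PMVK 0.0679, NSDHL 0.0248, DHCR7 0.12 (then called, adjusted p = 0.044) and SCAP 0.0698, against NC-1, IDI1 0.0397, SCAP 0.0313 and ABCA1 0.0392, and for NC-1 against Parent, LSS 0.0302, DHCR7 0.007, SREBF1 0.0524, SCAP 0.0384 and FASN 0.0503.

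Requiring a ratio of at least 1.5 left 1 member higher and 5 lower against Parent (sterol 0 and 3, fatty acid 0 and 2), 1 and 4 against NC-1 (sterol 0 and 1, fatty acid 3 lower), and 1 and 0 for NC-1 against Parent (sterol 1 and 0). Over all genes it left 721 higher and 769 lower, 551 and 744, and 307 and 194, and the 1 member higher against Parent and against NC-1 is ABCG1, whose call is tied to the filter. Median-of-ratios scaling gave branch medians of -0.17 and -0.39 against Parent, and -0.0086 and 0.0564 for NC-1 against Parent. Without the filter, and with only the groups compared, NC-1 against Parent had 2 members lower, 2 sterol enzymes higher and 2 lower. With 8mer sites only, 0 members had a seed site.

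Leaving out 1 library in turn, members called against Parent were 4 to 7 higher and 14 to 18 lower (sterol 1 to 2 and 6 to 9, fatty acid 0 to 1 and 6 to 7), with medians of -0.21 to -0.15 (sterol) and -0.45 to -0.37 (fatty acid). Against NC-1 they were 2 higher and 16 to 20 lower (sterol 8 to 11 lower, fatty acid 6), with medians of -0.28 to -0.22 and -0.44 to -0.42. NC-1 against Parent had 4 to 5 higher and 1 to 2 lower (sterol 2 to 3 and 1 to 2), with medians of -0.0447 to 0.0064 and 0.0244 to 0.0464. Over all genes the calls fell too, to 1249 to 2199 higher and 1915 to 2936 lower against Parent, 1198 to 2155 and 1617 to 2488 against NC-1, and 622 to 1027 and 733 to 1269 for NC-1 against Parent. Log2 fold changes that changed sign were those of SC5D (-0.0391 to 0.0473) and SCAP (-0.14 to 0.0176) against Parent, of IDI1 (-0.033 to 0.0051), NSDHL (-0.073 to 0.0787), SCAP (-0.0742 to 0.0337), INSIG2 (-0.0552 to 0.22) and ABCA1 (-0.11 to 0.10) against NC-1, and of HSD17B7 (-0.0076 to 0.0239), SCAP (-0.12 to 0.0378), FASN (-0.11 to 0.0367) and SCD (-0.0112 to 0.0387) for NC-1 against Parent, none of them called.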
